A study of Mus musculus with 20 samples.

Results

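P2rx7, Nt5e, Entpd1 and Adora2a, which sense or convert ATP and adenosine outside the cell, were followed in follicular T cells of the mouse spleen. The 4 genes were taken by name from the 13798 genes of the deposited single-cell expression matrix, and all 4 were present. Single-cell RNA sequencing was paired with sequencing of the T cell receptor of the same cells in 10 bone marrow chimeras, 5 per group. The recipients of both groups were irradiated. Mice of the WT group received congenic wild type marrow and were immunized at week 6 with NP-OVA, a hapten coupled to ovalbumin, in alum. The paper's methods also describe a booster of NP-OVA for non-autoimmune chimeras, 4 weeks after the first dose. Mice of the 564Igi group received the same marrow mixed with marrow of 564Igi mice, which carry knocked-in heavy and light chains of an autoreactive B cell receptor, and the labels give them no immunization. All mice were C57BL/6 and were sacrificed at week 10, and the age of each mouse is not given in the labels. Because immunization went with the group, the effect of the marrow and that of the immunization cannot be told apart in any comparison below. Splenic CD4+ T cells were enriched and then sorted as CD3+CD4+ cells with CXCR5 and PD-1, a gate that takes in follicular helper (Tfh) and follicular regulatory (Tfr) T cells. The sort also selected on the congenic CD45 marker, so it did not take in T cells of every congenic type.

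Dying or activated cells release ATP, which opens the channel P2X7 (encoded by P2rx7), and strong opening of P2X7 can kill T cells. CD39 (Entpd1) removes phosphates from ATP and ADP to leave AMP, and CD73 (Nt5e) turns AMP into adenosine. Adenosine then acts on the receptor encoded by Adora2a, which couples to a stimulatory G protein and raises cyclic AMP, a signal that dampens T cell activation. CD73 is a known surface protein of germinal centre Tfh cells, CD39 is known from regulatory T cells, and P2X7 is known to limit Tfh cell numbers.

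The deposited matrix held 28192 cells, 14965 of WT and 13227 of 564Igi mice, with 1890 to 4030 cells per WT mouse and 1121 to 3120 per 564Igi mouse. Median raw UMIs per cell were 2937.5 to 3823.5 in the WT mice and 2728 to 4375.5 in the 564Igi mice, and mouse 24 of the 564Igi group had both the fewest cells and the lowest median. Of 27695 distinct cell barcodes, 491 were found in more than 1 library. The authors' 6 clusters were used as deposited: activated Tfh (11953 cells), Tfr (11650), Sostdc1 Tfh (2803), central memory Tfh (725), effector Tfh (682) and interferon stimulated Tfh (379). Cd3e was found in 97.5 to 99.8% of cells of every cluster. Cd4, the other T cell marker listed, was less even. It was found in 33.96% of central memory cells, against 58.82% (Tfr) to 77.37% (Sostdc1 Tfh) in the other clusters. The cause of the low Cd4 share in central memory cells was not tested. Markers fitted 5 of the 6 names, with Foxp3 in 56.05% of Tfr, Sostdc1 in 100% of Sostdc1, Gzmk in 83.1% of effector, Sox4 in 66.9% of central memory and Ifit1 in 89.4% of interferon stimulated cells, although Foxp3 was also found in 26.3% of the last, against 7.20% of activated Tfh cells. The 3 markers of activated Tfh cells were each found more often elsewhere, Tnfsf8 (63.5%) and Cd40lg (49.2%) in Sostdc1 Tfh cells (76.99% and 58.1%) and Klf2 (31.1%) in central memory cells (57.5%), so that name is the authors' own. Of the 5 B cell genes measured, Ms4a1 was found in 0.06%, Cd79a in 0.25%, Fcmr in 2.83%, Cd79b in 3.52% and Cd22 in 4.37% of all cells, and the share that RNA from outside the cell takes in any gene was not tested.

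Values are given as the percent of a mouse's cells with at least 1 corrected UMI of the gene, and, for tests, as a level, the mean over cells of log2(corrected count + 1). The authors corrected the counts for depth within each condition on its own, so a condition comparison also holds any difference between those 2 corrections. A share says how often the transcript was caught, and a cell without a UMI may still express the gene. Counting error alone gave 95% Wilson intervals of 1.44 to 5.62 percentage points in width for the share in all cells of a mouse, 1.97 to 8.04 in activated Tfh and 2.48 to 9.54 in Tfr cells, and up to 35.3 in the effector cluster.

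P2rx7 lies at chr5:122643911-122691432 (GRCm38, + strand), Nt5e at chr9:88327197-88372092, Entpd1 at chr19:40612366-40741602 and Adora2a at chr10:75316877-75334784, all on the + strand and all protein coding. Stretches of up to 250 bases before a start of these genes are printed to show what lies there, and whether they bear on the levels by cluster was not tested. RefSeq windows were at hand for 3 of the 4 members (GRCm38.p6). Windows with 118 or more exon bases were left out, the 16 exon bases at the end of 1 P2rx7 window were cut off, and the windows with a motif match are shown. The windows were searched on both strands for the AP-1 site TGANTCA, bound by factors induced on T cell activation, and for TGACG, the core of the site bound by cyclic AMP response factors, and matches are in capitals.
P2rx7, chr5:122643677-122643910, + strand: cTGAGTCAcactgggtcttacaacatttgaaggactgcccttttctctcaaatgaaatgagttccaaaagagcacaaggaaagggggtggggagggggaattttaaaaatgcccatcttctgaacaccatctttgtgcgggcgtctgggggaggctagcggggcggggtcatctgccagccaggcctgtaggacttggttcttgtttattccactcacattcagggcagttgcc
Entpd1, chr19:40659520-40659769, + strand: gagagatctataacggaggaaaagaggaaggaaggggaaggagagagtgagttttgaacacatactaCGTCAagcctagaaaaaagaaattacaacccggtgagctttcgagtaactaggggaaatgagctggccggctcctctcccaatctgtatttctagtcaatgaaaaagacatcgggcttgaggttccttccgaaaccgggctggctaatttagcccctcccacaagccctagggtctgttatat
The P2rx7 window held 1 AP-1 match and no TGACG, and the Entpd1 window held 1 TGACG, read on the minus strand, and no AP-1 match. Among 32851 RefSeq windows of 250 bases, 6.75% held TGANTCA and 17.8% held TGACG, so neither match is rare, and a match is a description of the letters and not of a bound factor. A further P2rx7 window at chr5:122650133-122650382 held neither motif. Of the windows left out, that of Entpd1 at chr19:40612116-40612365 held 1 TGACG and no AP-1 match, and that of Nt5e held neither motif.

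Of the 4 genes, Nt5e was the most often detected and Entpd1 the least. Over the 10 mice, the share of all cells was 40.6 ± 3.87% (SD) for Nt5e, 22.9 ± 4.54% for P2rx7, 20.9 ± 3.79% for Adora2a and 6.54 ± 1.51% for Entpd1. The order of the clusters differed between the genes. Because the clusters had been made from these same cells, the levels by cluster are a description with no test, and neighbours in the order are called apart where the mean difference within mice exceeded its SD.

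**Figure D1:**
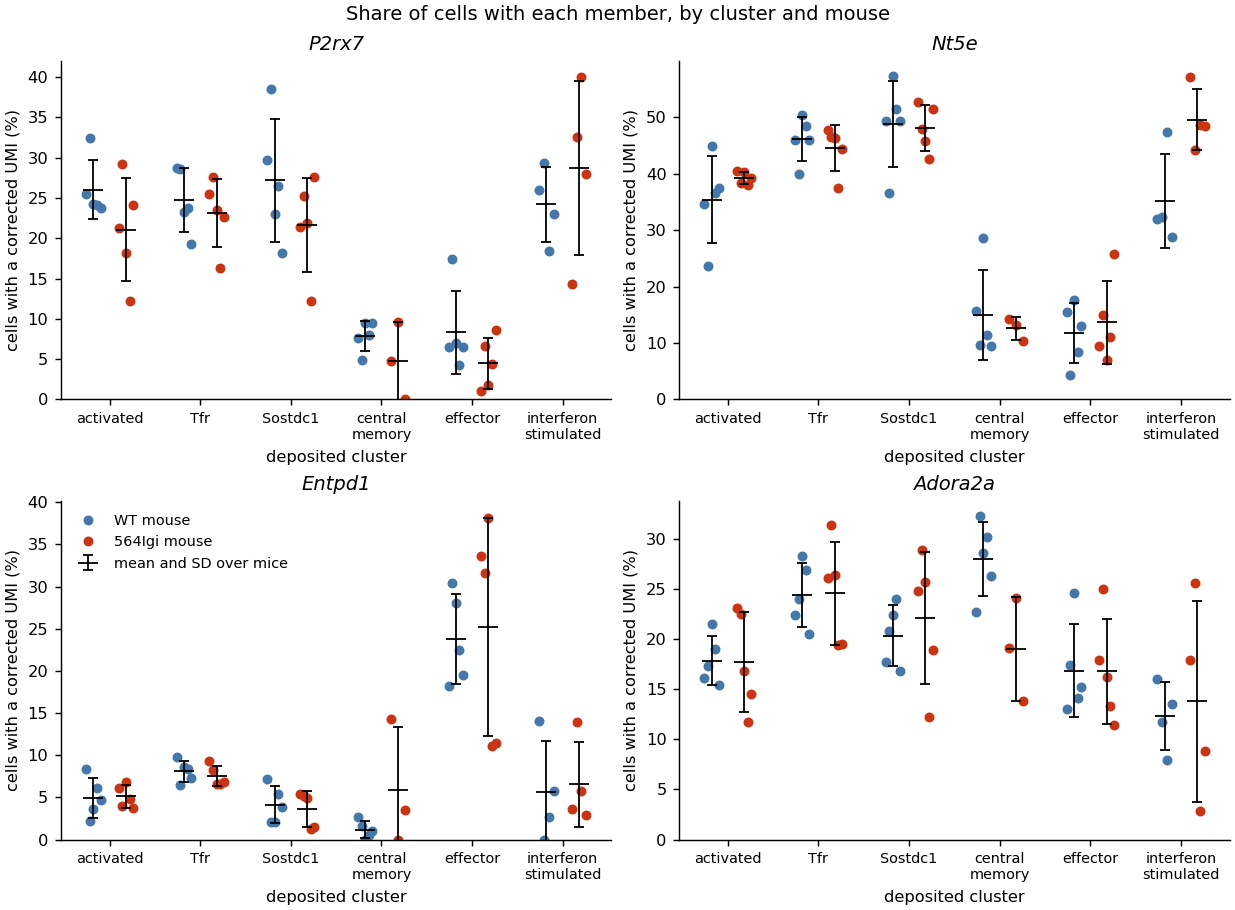
Percent of cells with at least 1 corrected UMI (y axis) of P2rx7, Nt5e, Entpd1 and Adora2a in the 6 deposited clusters (x axis), 1 point per mouse with at least 20 cells, bars giving mean and SD over mice. P2rx7 and Nt5e were low in central memory and effector cells, Entpd1 was high only in effector cells among the 6 clusters, and Adora2a varied least, and WT and 564Igi points overlap in every cluster.

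P2rx7, the receptor for ATP, was found in about the same share of interferon stimulated (26.5 ± 8.07%, n = 8 mice), Sostdc1 (24.4 ± 7.07%, n = 10), Tfr (23.9 ± 3.96%, n = 10) and activated Tfh cells (23.5 ± 5.56%, n = 10). None of these neighbours were apart. Central memory cells (6.72 ± 3.35%, n = 8) and effector cells (6.41 ± 4.53%, n = 10) stood far below, and activated Tfh cells were higher than effector cells in 10 of 10 mice, by 17.1 ± 4.02 percentage points. Central memory cells had the highest median UMI count of the 6 clusters (4027, against 3547 in activated Tfh and 3471 in effector cells). In central memory cells of 564Igi mouse 24 the gene was found in 0 of 29 cells, which allows a share of up to 10.3%.

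Nt5e, the enzyme that makes adenosine, had the same low clusters but a graded order among the rest. Its share was 48.5 ± 5.76% in Sostdc1 Tfh, 45.3 ± 3.91% in Tfr, 42.4 ± 10.1% in interferon stimulated and 37.3 ± 5.55% in activated Tfh cells. Activated Tfh cells lay below Sostdc1 Tfh cells in 10 of 10 mice, with a mean difference of -11.1 ± 3.48 points, and below Tfr cells in 9 of 10, with a mean difference of -8.004 ± 4.54 points. Sostdc1 Tfh and Tfr cells were not apart in level, although the share was higher in Sostdc1 Tfh cells in 8 of 10 mice. Central memory cells (14.1 ± 6.27%) and effector cells (12.7 ± 6.15%) were again lowest, and were not apart from each other.

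Entpd1, the enzyme that starts ATP breakdown, was highest in effector cells, where P2rx7 and Nt5e were low, and like them was low in central memory cells. It was found in 24.5 ± 9.36% of effector cells, the Ccl5 and Gzmk cluster, against 7.81 ± 1.21% of Tfr cells, the next in order, and was higher in effector than in Tfr cells in 10 of 10 mice. Effector shares spread widely between mice, from 11.1% in 564Igi mouse 24 and 11.4% in mouse 34 to 38.2% in mouse 21. Below Tfr came interferon stimulated (6.07 ± 5.21%), activated (5.04 ± 1.81%), Sostdc1 (3.87 ± 2.05%) and central memory cells (2.96 ± 4.74%). Tfr cells exceeded Sostdc1 Tfh cells in 10 of 10 mice and activated Tfh cells in 9 of 10. Entpd1 is also known from macrophages, and of the myeloid markers Cd68 was found in 13.96% of effector cells against 2.38 to 5.31% of the other clusters, whereas Lyz2 was found in 0.20%, Csf1r in 0.29% and Cst3 in 36.1% of effector cells, the last within its range in the other clusters (33.99 to 50.7%). The cells had been enriched for CD4+ T cells and gated as CD3+CD4+, and Cd3e was found in 99.3% of effector cells. The listed myeloid markers Adgre1 and Itgam were not in the matrix. The part of other cells in the effector value was not tested.

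Adora2a, the adenosine receptor, had the flattest profile and the only one in which central memory cells did not rank low. Central memory (24.6 ± 6.09%) and Tfr cells (24.5 ± 4.002%) came first and were not apart. Tfr cells exceeded Sostdc1 Tfh cells (21.2 ± 4.93%) in 10 of 10 mice, by 3.24 ± 2.18 points, and activated Tfh cells (17.8 ± 3.69%) in 10 of 10, by 6.67 ± 1.95 points. Effector (16.8 ± 4.65%) and interferon stimulated cells (13.03 ± 6.96%) were lowest. Tfr cells thus ranked 2 of the 6 clusters for both enzymes and for Adora2a. For Entpd1 they lay far below effector cells (7.81% against 24.5%), and for neither enzyme were they apart from interferon stimulated cells.

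Within the Tfr cluster, only Entpd1 of the 4 members went clearly with detection of Foxp3, the transcription factor that defines regulatory T cells. In WT mice 11, 12, 14, 23 and 36, Entpd1 was found in 10.98, 8.45, 11.1, 10.53 and 10.2% of Foxp3-positive cells and in 7.88, 4.22, 5.41, 5.53 and 3.61% of Tfr cells without a Foxp3 UMI. In 564Igi mice 13, 17, 21, 24 and 34 the shares were 11.4, 10.4, 8.11, 10.0 and 9.03% against 5.85, 5.41, 4.79, 3.47 and 3.97%. Every mouse thus had the higher share in the Foxp3-positive cells, with means of 10.0 ± 1.14% and 5.01 ± 1.32%. Foxp3-positive cells were slightly deeper (mean of the median UMIs 3556 against 3362), and among cells of 2500 to 5000 UMIs the shares were 9.69 ± 1.46% and 4.85 ± 1.28%, again higher in 10 of 10 mice. The shares of P2rx7 (24.3 against 23.4%), Nt5e (46.3 against 44.1%) and Adora2a (25.0 against 23.6%) differed by less than the SD of their differences. Both genes of each pair come from the same cells, so these are descriptions with no test.

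**Figure D2:**
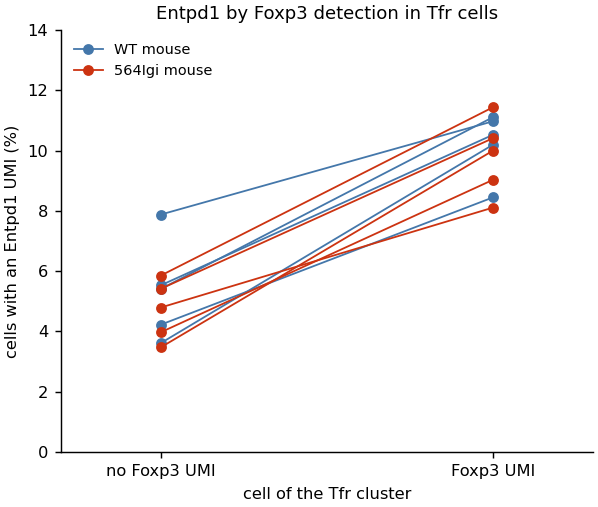
Percent of Tfr cells with an Entpd1 UMI (y axis) among cells without and with a Foxp3 UMI (x axis), with 1 line per mouse. All 10 lines climb, from a mean of 5.01% to a mean of 10.0%.

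Few cells held transcripts of both enzymes. Entpd1 and Nt5e were found together in 3.58 ± 1.13% of Tfr, 3.79 ± 3.36% of interferon stimulated, 2.26 ± 1.02% of activated, 1.98 ± 1.21% of Sostdc1, 1.88 ± 1.72% of effector and 0.202 ± 0.570% of central memory cells. At least 1 of the enzymes was found in 50.3 ± 6.06% of Sostdc1 Tfh, 49.6 ± 3.82% of Tfr and 40.1 ± 5.66% of activated Tfh cells, most of them with Nt5e alone, whereas 22.6 ± 8.99% of effector cells held Entpd1 alone and 10.8 ± 6.12% Nt5e alone. No member was found in 29.2 ± 4.75% of Tfr cells and in 59.4 ± 6.78% of central memory cells, the lowest and highest shares of the 6 clusters.

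Cells with a P2rx7 UMI held Entpd1 less often than cells without one, in activated Tfh (3.59 ± 1.73% against 5.52 ± 1.97%, lower in 9 of 10 mice) and in Tfr cells (6.62 ± 1.83% against 8.14 ± 1.19%, lower in 9 of 10), although the P2rx7 cells were the deeper ones (mean of the median UMIs 3812.5 against 3416.85 in activated Tfh cells). The pair Nt5e and Adora2a went the other way in activated and Sostdc1 Tfh cells. Adora2a was found in 19.4 ± 3.45% of activated Tfh cells with Nt5e and 16.8 ± 3.95% of those without, and in 24.2 ± 7.23% against 18.1 ± 4.11% of Sostdc1 Tfh cells, higher in 9 of 10 mice in each. In Tfr cells the shares were close, at 24.9 ± 4.52% and 24.1 ± 3.77% (higher in 6 of 10). The cells with Nt5e were also deeper (3677 against 3399.55 UMIs in activated Tfh cells), and the part of depth in this difference was not tested. In such sparse counts these shifts are small and are given as description.

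Over the 56 values of a mouse in a cluster, the level of P2rx7 followed that of Nt5e (r = 0.69) and ran against Entpd1 (r = -0.41), Nt5e ran against Entpd1 (r = -0.48), and Adora2a followed none of them (r between -0.07 and 0.01). These values share mice, and the correlation is mostly one of clusters, so no p is given. The genes most like P2rx7 were Nav2 (r = 0.81), Asb2 (r = 0.80) and Gm35363 (r = 0.80). Nt5e was most like Sccpdh (r = 0.92), Tiam1 (r = 0.90) and Icos (r = 0.89), the last a costimulatory receptor that Tfh cells need. Entpd1 was most like Rgs1 (r = 0.89), a regulator of G protein signalling, Ccl5 (r = 0.88), a chemokine, and Hip1 (r = 0.87). Adora2a was most like Tmem256 (r = 0.76), Atpif1 (r = 0.67), an inhibitor of the mitochondrial ATP synthase, and Tmem11 (r = 0.67).

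The design compares follicular T cells of autoreactive (564Igi) and immunized control (WT) chimeras, and no member passed an adjusted p of 0.01 in all cells or in any cluster, the lowest adjusted p being 0.627. A call also needed a log2 difference of more than 0.2 in size. Both numbers are the study's, which set them on fold changes from another test, and on the present scale a gene with a level under 0.2, such as Entpd1 in all cells of WT mice (0.069), cannot be lower by that much, so the members are better judged by their p-values and intervals. In limma on the levels per mouse, with Benjamini-Hochberg adjustment over all genes tested, 0 of 4 members were called in all cells, where 0.010% of 9959 genes were, and 0 of 4 had an unadjusted p under 0.05, where 3.19% of genes did. No member was called in activated Tfh (0.0101% of genes called), Tfr (0.0200%), Sostdc1 (0.0202%), central memory (0%), effector (0.0104%) or interferon stimulated cells (0.0106%) either. Over these 6 clusters, 2 member differences had an unadjusted p under 0.05, 1 in central memory cells, where 7.57% of genes did, and 1 in interferon stimulated cells, where 4.20% did. None did in activated Tfh (3.99% of genes), Tfr (3.50%), Sostdc1 (4.6%) or effector cells (5.22%). The exact two-sided permutation test of the shares gave no p under 0.05 in 28 comparisons, unadjusted, and its lowest was 0.0536. The smallest p these designs allow is 0.00794 for 5 against 5 mice, 0.0286 for 4 against 4 and 0.0179 for 5 against 3.

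**Figure D3:**
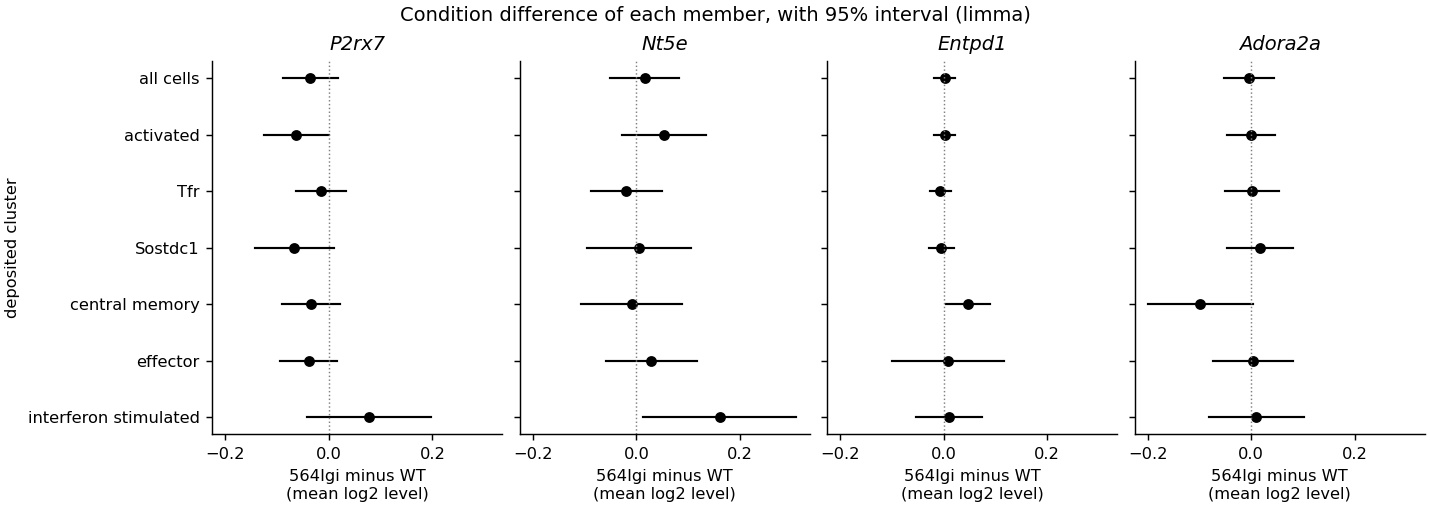
Difference in level between 564Igi and WT mice (x axis, mean log2(corrected count + 1), 564Igi minus WT) for each member in all cells and in each cluster (y axis), with the 95% interval from limma. Most intervals span 0, and those that do not are Entpd1 in central memory cells and Nt5e in interferon stimulated cells.

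For P2rx7, the share of activated Tfh cells was 25.5, 32.5, 24.2, 24.1 and 23.8% in WT mice 11, 12, 14, 23 and 36 and 21.3, 29.3, 18.2, 12.2 and 24.1% in 564Igi mice 13, 17, 21, 24 and 34. The groups overlapped, with mouse 24 lowest and mouse 12 highest. The means were 26.0 ± 3.66% and 21.04 ± 6.38% (exact permutation p = 0.183), and the level differed by -0.063 (95% interval -0.13 to 0.00036, limma p = 0.0512, adjusted p = 0.9997). Single mice moved this value both ways. Without 564Igi mouse 17 the exact permutation p of the share was 0.0238, and without 564Igi mouse 24 the level differed by -0.037 (limma p = 0.203) and the share by -2.77 points. In Sostdc1 Tfh cells the shares were 27.2 ± 7.66% and 21.7 ± 5.88% (exact permutation p = 0.246), and in Tfr cells 24.7 ± 3.95% and 23.1 ± 4.26% (exact permutation p = 0.571).

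For Nt5e, the WT mice were spread and the 564Igi mice were close together in activated Tfh cells. WT mice 11, 12, 14, 23 and 36 had the transcript in 34.6, 23.6, 44.9, 36.7 and 37.5% of these cells, and 564Igi mice 13, 17, 21, 24 and 34 in 40.4, 38.3, 40.3, 37.9 and 39.2%. All 564Igi values lay within the WT range, and the means were 35.4 ± 7.68% and 39.2 ± 1.12% (exact permutation p = 0.365, level difference 0.054, 95% interval -0.028 to 0.14). Without WT mouse 14 every 564Igi mouse was above every WT mouse (exact permutation p = 0.00794, the smallest that design allows), whereas without WT mouse 12 the level differed by 0.014 (limma p = 0.674) and the share by 0.839 points. In Tfr cells the means were 46.2 ± 3.97% and 44.5 ± 4.11% (exact permutation p = 0.516).

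For Entpd1, the shares in all cells were 8.86, 4.80, 6.03, 6.89 and 5.73% in the WT mice, in the order above, and 8.50, 6.25, 8.14, 5.53 and 4.69% in the 564Igi mice. The ranges coincided, and the level differed by 0.0016 (95% interval -0.019 to 0.022). That interval was the narrowest of the 4 members in all cells, but it goes with the lowest level. The level in WT mice was 0.069 for Entpd1, against 0.504 for Nt5e, 0.278 for P2rx7 and 0.228 for Adora2a, so the interval is not narrow for its level. In Tfr cells the means were 8.09 ± 1.27% and 7.52 ± 1.22% (exact permutation p = 0.508), and in effector cells 23.8 ± 5.32% and 25.2 ± 12.9% (exact permutation p = 0.817, level difference 0.0088). The effector value depended on which mice were kept. With at least 50 cells per mouse, which left 3 mice in each group, the level differed by 0.14 (limma p = 0.0106), and with 1 mouse left out in turn by -0.029 to 0.052. Among effector cells of 2500 to 5000 UMIs the share differed by 10.7 points (exact permutation p = 0.222).

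For Adora2a, the shares in all cells were 19.2, 21.7, 24.3, 22.7 and 17.9% in the WT mice and 24.5, 26.4, 21.5, 14.5 and 16.8% in the 564Igi mice. The 564Igi mice reached both higher and lower than the WT mice. The level differed by -0.0046 in all cells (95% interval -0.053 to 0.043) and by -2.1e-05 in activated Tfh cells (95% interval -0.047 to 0.047). In Tfr cells the means were 24.4 ± 3.17% and 24.5 ± 5.10% (exact permutation p = 0.968).

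The small clusters held the member differences with an unadjusted limma p under 0.05. Nt5e was found in 32.0, 32.4, 47.4 and 28.8% of interferon stimulated cells of WT mice 11, 14, 23 and 36 and in 57.1, 44.2, 48.6 and 48.5% of those of 564Igi mice 13, 17, 21 and 34, from 28 to 68 cells per mouse. Of these mice only WT mouse 23 reached the 564Igi range. WT mouse 12 and 564Igi mouse 24, which were under the minimum of 20 cells, had the transcript in 7.14% of 14 and 23.5% of 17 cells, the latter below the 4 WT mice. The level differed by 0.16 (limma p = 0.0334, adjusted p = 0.998, exact permutation p of the share 0.0571), and by 0.12 without 564Igi mouse 13 (limma p = 0.119). The share of cells with at least 2 corrected UMIs differed by 2.49 points (exact permutation p = 0.486). Entpd1 in central memory cells differed by 0.047 (limma p = 0.0351, adjusted p = 0.627), but that value rested on 564Igi mouse 13, with the transcript in 14.3% of 21 cells. Without that mouse the difference was 0.0047 (limma p = 0.682), and without 564Igi mouse 17 it was 0.076 (limma p = 0.00305). With at least 50 cells per mouse it was -0.016, but that minimum left mouse 17 as the only 564Igi mouse. Adora2a in central memory cells was found in 28.0 ± 3.67% in 5 WT mice and 19.0 ± 5.15% in 3 564Igi mice (exact permutation p = 0.0536, limma p = 0.0557, adjusted p = 0.661). Without 564Igi mouse 24 its level difference went from -0.099 to -0.064 (limma p = 0.216), and without 564Igi mouse 17 to -0.13 (limma p = 0.0233), with a p under 0.05 in 4 of 16 alternatives. The 564Igi mice under the minimum of 20 cells, 21 and 34, had the transcript in 26.3% of 19 and 23.1% of 13 cells, within the WT range.

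The condition difference itself was compared between clusters, mouse by mouse, and 0 of 4 members were called either for Tfr minus activated Tfh cells or for Sostdc1 minus activated Tfh cells, where 0% of genes were called and 7.73% and 6.82% had an unadjusted p under 0.05. The 2 lowest p-values pointed opposite ways. For Nt5e the level difference was 0.054 in activated Tfh cells (limma p = 0.185) and -0.019 in Tfr cells (limma p = 0.563), neither past the test, and the difference between them was -0.073 (95% interval -0.13 to -0.018, limma p = 0.0124, adjusted p = 0.506), with a p under 0.05 in all 16 alternative analyses. For P2rx7 it was -0.063 in activated Tfh cells (limma p = 0.0512) and -0.016 in Tfr cells (limma p = 0.501), again neither past the test, and the difference between them was 0.047 (95% interval 0.0049 to 0.089, limma p = 0.0306, adjusted p = 0.592), with a p under 0.05 in 9 of 16 alternatives and a p of 0.0902 without 564Igi mouse 24. Neither passed the adjustment. For Entpd1 and Adora2a the values were -0.0081 and 0.0017 (limma p = 0.394 and 0.907).

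Clone sizes came from the receptor libraries, which gave a paired receptor for 21405 cells (75.9%), and cells of clonotypes with 3 or more cells in a mouse were compared within each mouse with cells of singleton clonotypes. Of the 4 members, Nt5e in activated Tfh cells came closest to the thresholds. The share in singleton cells was 30.5, 23.7, 45.3, 31.6 and 33.1% in WT mice 11, 12, 14, 23 and 36 and 38.8, 32.0, 33.95, 33.6 and 39.4% in 564Igi mice 13, 17, 21, 24 and 34. In expanded clones it was 38.1, 23.1, 45.9, 39.9 and 39.7% and 39.4, 40.3, 39.8, 38.8 and 37.5% in the same order. The share was higher in expanded clones in 8 of 10 mice, with WT mouse 12 and 564Igi mouse 34 as the exceptions, and the means were 38.2 ± 5.80% and 34.2 ± 5.85%. The level differed by 0.062 (SE 0.016, 95% interval 0.030 to 0.094, limma p = 0.000434, adjusted p = 0.0107), just outside the adjusted threshold and under the fold limit, so Nt5e was not called. Many genes differed between these cells, since 22.9% of 9859 genes had an unadjusted p under 0.05 and 0.183% were called, with 0 of the 4 members among them. Expanded cells were shallower than singleton cells (mean of the median UMIs 3530 against 3921), and without a change of sign the difference for Nt5e kept a p under 0.05 in all 15 alternatives, among them cells of 2500 to 5000 UMIs only.

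By clone size, Nt5e was found in 34.2 ± 5.85% of activated Tfh cells of 1-cell clonotypes, 37.6 ± 12.1% at 2 cells, 37.8 ± 3.60% at 3 to 9 cells and 38.6 ± 7.59% at 10 or more, so most of the step lay between singletons and the rest. P2rx7 was found in 25.6 ± 5.07, 23.9 ± 4.62, 24.4 ± 6.99 and 22.2 ± 6.08% of the same classes. Entpd1 was found in 5.53 ± 2.04% of expanded and 4.51 ± 2.30% of singleton cells, higher in 8 of 10 mice (level difference 0.013, limma p = 0.0501, adjusted p = 0.218, and 0.025 with limma p = 0.0013 at 2500 to 5000 UMIs), and Adora2a in 17.9 ± 3.69% and 18.2 ± 5.23%. In Tfr cells, where 0.0700% of genes were called and 18.1% had an unadjusted p under 0.05, none of the 4 members had one, with Nt5e at 46.3 ± 4.45% in expanded and 44.9 ± 6.22% in singleton cells. In Sostdc1 Tfh cells, with 7 mice, 0 of 4 were called and none had an unadjusted p under 0.05, where 0% and 7.05% of genes did.

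**Figure D4:**
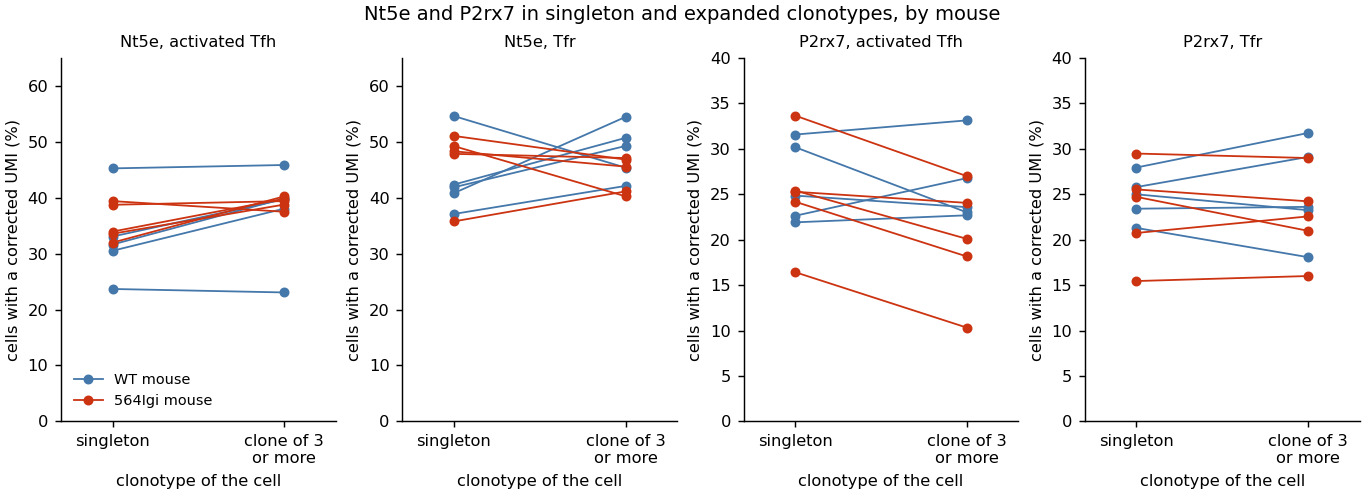
Percent of activated Tfh and Tfr cells with a UMI of Nt5e or P2rx7 (y axis) in singleton clonotypes and in clonotypes of 3 or more cells (x axis), with 1 line per mouse. Nt5e in activated Tfh cells was higher in expanded clones in 8 of 10 mice, and P2rx7 was lower in all 5 of the 564Igi mice.

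For P2rx7 in activated Tfh cells, the same difference was compared between the conditions. In 564Igi mice 13, 17, 21, 24 and 34 it was found in 25.4, 33.7, 24.2, 16.4 and 25.3% of singleton and 20.1, 27.0, 18.2, 10.3 and 24.1% of expanded cells. In WT mice 11, 12, 14, 23 and 36 the shares were 30.2, 31.6, 22.6, 24.9 and 21.9% against 23.01, 33.1, 26.8, 23.6 and 22.7%. All 5 of the 564Igi mice were lower in expanded clones, by 5.07 ± 2.20 points, and 3 of 5 WT mice were higher. Over all mice the level differed by -0.029 (limma p = 0.0307, adjusted p = 0.166), and by -0.015 (limma p = 0.316) among cells of 2500 to 5000 UMIs. The difference between conditions was -0.059 (95% interval -0.11 to -0.010, limma p = 0.0190, adjusted p = 0.669), where 0% of genes were called and 6.61% had an unadjusted p under 0.05. It was -0.044 without WT mouse 14 (limma p = 0.0753) and -0.039 at 2500 to 5000 UMIs (limma p = 0.179). In Tfr cells the member with the lowest p was Nt5e, higher in expanded clones in 4 of 5 WT mice (by 5.04 ± 8.58 points on average) and in 1 of 5 564Igi mice (-2.27 ± 5.24 points), a difference between conditions of -0.092 (limma p = 0.0203, adjusted p = 0.620) that was -0.054 without WT mouse 23 (limma p = 0.149) and -0.13 without WT mouse 14 (limma p = 0.000727), with a p under 0.05 in 10 of 15 alternatives, where 0.010% of genes were called and 6.84% had an unadjusted p under 0.05.

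Cells of the same clone resembled each other in Nt5e. In clones of 3 or more activated Tfh cells, Nt5e was found in 42.3 ± 7.76% of the clone mates of a cell with Nt5e and in 35.5 ± 5.53% of the mates of a cell without, higher in 10 of 10 mice by 6.82 ± 3.05 points (4773 cells of 616 clones). The same held in Sostdc1 Tfh cells (52.5 ± 9.42% against 45.7 ± 8.15%, 6 of 6 mice), and in Tfr cells the shares were 49.0 ± 4.91% and 46.0 ± 5.95% (8 of 10). P2rx7 was found in 25.9 ± 6.71% against 20.9 ± 6.09% of mates in activated Tfh cells (7 of 10) and Entpd1 in 10.1 ± 3.87% against 6.16 ± 2.11% (6 of 7 mice). For Adora2a the shares in activated Tfh cells were close, at 17.2 ± 2.61% and 17.5 ± 3.41% (4 of 10). Clone mates share a mouse and a library, and these shares are given with no test.

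The rest of the pathway was read from lists of 78 genes, of which 58 were in the matrix. Among other receptors for ATP and nucleotides, the most often detected was P2rx4, another ATP-gated channel, in 10.6% of cells, and the least P2rx5 in 0.0894%. Among genes of ATP release and P2X7 signalling, Pycard, the inflammasome adaptor, was found in 52.8% and Ano6 in 8.86%. Of the other ectonucleotidases and NAD-consuming enzymes, the most often detected was Cd38, which consumes NAD outside the cell, in 10.9% of all and 23.2% of effector cells, and the least Bst1 in 0.0395%. Of the genes that handle adenosine, Nt5c (a cytosolic nucleotidase) was found in 48.6% and the transporter gene Slc29a2 in 0.228%, and of the cyclic AMP pathway Gnas, which encodes the stimulatory G protein subunit that the Adora2a receptor uses, in 79.5% and Adcy6 in 0.119%. In the condition comparison 0 of 44 listed genes tested were called in all cells, 0 of 46 in activated Tfh and 0 of 43 in Tfr cells. Only Cd38 had an unadjusted p under 0.05. That is 2.27, 2.17 and 2.33% of the listed genes, beside 3.19, 3.99 and 3.50% of all genes. The Cd38 difference was -0.034 in all cells (limma p = 0.0351, adjusted p = 0.9997), -0.039 in activated Tfh (limma p = 0.00747, adjusted p = 0.956) and -0.041 in Tfr cells (limma p = 0.0253, adjusted p = 0.9998). The median difference over the listed genes was -0.00043 in all cells, against -0.0018 over all genes tested. In expanded against singleton activated Tfh cells 14 of 46 listed genes (30.4%) had an unadjusted p under 0.05, 4 higher and 10 lower, beside 22.9% of all genes, and 0 were called. Of these, Prkacb, a catalytic subunit of the cyclic AMP-dependent kinase, differed by -0.072 (limma, adjusted p = 0.000862) and Pycard by -0.11 (limma, adjusted p = 0.00272), so both passed the adjusted p and only the fold limit kept them from being called. They are named here after their values were seen. In Tfr cells 9 of 43 had one (20.9%), 1 higher and 8 lower, beside 18.1% of all genes.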

How the data were processed

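Libraries of 10 mice were made by the authors for RNA and for the T cell receptor. Reads were aligned to GRCm38 and counted as unique molecular identifiers (UMIs), and the submitters' processing notes name Cell Ranger 4.0.0 and Seurat 3.1.4. The expression matrix deposited by the authors holds the natural log of 1 plus a UMI count corrected by sctransform, with each condition corrected on its own. Undoing the log gave whole corrected counts for 100% of the values (within 1e-06). Raw UMI counts per cell, the percent of mitochondrial counts, a heat shock score and the cluster of each cell were used as deposited, and receptor sequences as clonotypes. No doublet caller was run.

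For each mouse and cluster with at least 20 cells, the percent of cells with at least 1 corrected UMI and the mean of log2(corrected count + 1) were computed. Levels of all genes found in at least 1% of cells were fitted with limma 3.58.1 (R 4.3.3, variance trend, Benjamini-Hochberg adjustment over all genes). A gene was called at adjusted p under 0.01 and an absolute log2 difference above 0.2, the numbers the study used with MAST and a Bonferroni correction. Shares were compared with a two-sided exact permutation test over mice (Python 3.11.15, scipy 1.17.1). Mice are the replicates. Cells of a mouse are not independent, and intervals of a share cover counting error only. An expanded clonotype had 3 or more cells of a mouse with the same CDR3 pair. Positions are from GENCODE vM21 and promoter windows from RefSeq.

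The members and gene lists were chosen with earlier results of these data known. The 4 members are named throughout. Listed genes are named at an unadjusted p under 0.05 in the condition comparisons of all, activated Tfh or Tfr cells, or as the most or least detected of a list, and the 3 genes most like each member by Pearson's r. The fits were tested on simulated data. Alternatives covered the trend, the gene filter, the thresholds, the scale, sex, cell minimum, clone size, depth and each mouse left out.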

Additional observations from a re-analysis of the deposited data

Results flagged for a closer look

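WT mouse 12 stood apart from the other WT mice in P2rx7. In activated Tfh cells it had the transcript in 32.46% of cells, where the other 4 WT mice lay between 23.78 and 25.53%, and in effector cells in 17.39% of 23 cells, where the others lay between 4.23 and 7.02%. The gap to the nearest mouse exceeded Dixon's 95% limit in both. Of 52 groups of mice tested in this way 2 passed, and chance gives about 1 in 20 groups.

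In 4 of 16 tests the condition difference of a member differed between clusters or between clone sizes at an unadjusted p under 0.05, and none of the 4 passed the adjustment over all genes. Over all genes tested, 7.73 and 6.82% had such a p in the comparisons between clusters and 6.61 and 6.84% in those between clone sizes. For Tfr minus activated Tfh cells the values were 0.047 for P2rx7 (limma p = 0.0306, adjusted p = 0.592) and -0.073 for Nt5e (limma p = 0.0124, adjusted p = 0.506). For expanded minus singleton clones they were -0.059 for P2rx7 in activated Tfh cells (limma p = 0.0190, adjusted p = 0.669) and -0.092 for Nt5e in Tfr cells (limma p = 0.0203, adjusted p = 0.620). These share mice, and those in activated Tfh cells share cells, so they are not independent of each other.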

How the results depend on the processing

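No member was called in any of 872 refits of the 56 member differences, although in 5 refits Nt5e in expanded against singleton activated Tfh cells had an adjusted p under 0.01 and stayed under the fold limit. Of the refits, 110 had the opposite sign, 1 of them with a p under 0.05 in the original fit. That was Entpd1 in central memory cells, -0.016 with at least 50 cells per mouse, where mouse 17 was the only 564Igi mouse left. Of 312 share differences under alternatives, 58 had the opposite sign and 7 an exact p under 0.05.

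The counts of genes called moved more. With an adjusted p under 0.05 and no fold limit they were 7 in all cells, 4 in activated Tfh, 9 in Tfr, 4 in Sostdc1, 3 in central memory and 6 in effector cells, 1 and 6 for Tfr and Sostdc1 minus activated Tfh cells, 861, 318 and 2 for expanded minus singleton activated Tfh, Tfr and Sostdc1 cells, and 5 for the condition difference of the latter in Tfr cells. Without the variance trend they were 0 in all, activated, Tfr, Sostdc1, effector and interferon stimulated cells, 8 and 4 for expanded activated Tfh and Tfr cells, and 0 for the condition difference in expanded Tfr cells. With no filter on low genes they were 0 in activated Tfh and Tfr and 1 in Sostdc1 cells, 4 and 3 for expanded activated Tfh and Tfr cells, and 0 for the condition difference in expanded Tfr cells. On the scale of the mean count per 10000 they were 2 in all, central memory and effector cells, 1 for each cluster difference, and 100, 33 and 1 for expanded activated Tfh, Tfr and Sostdc1 cells. With sex as a covariate they were 2 in central memory cells and 3 for Sostdc1 minus activated Tfh cells. With at least 50 cells per mouse they were 3 in effector cells, without mice 34 and 36 6 in effector and 2 in interferon stimulated cells, with equal cluster weights 2 in all cells, and at 2500 to 5000 UMIs 0 for the condition difference in expanded Tfr cells. In central memory cells the minimum of 50 left mouse 17 as the only 564Igi mouse, so no count is given. The cause was not tested.

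With each mouse left out in turn, counts of genes called ran from 1 to 2 in all cells, from 1 to 3 in activated Tfh, Tfr, Sostdc1, effector and interferon stimulated cells, and from 0 to 9 in central memory cells. They ran from 0 to 2 for each cluster difference, from 13 to 22, 6 to 8 and 0 to 1 for expanded activated Tfh, Tfr and Sostdc1 cells, and from 0 to 1 and 0 to 2 for the condition difference in expanded activated Tfh and Tfr cells. The number of member shares with an exact p under 0.05 ran from 0 to 4, with 4 without 564Igi mouse 17.

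Every one of the 33833 cells of the receptor table listed 1 alpha and 1 beta sequence, so leaving out cells with more left out none. No paired analysis was possible because the WT and 564Igi mice share no numbers. Each mouse is 1 library, and what can be seen in central memory, effector and interferon stimulated cells is limited by their numbers, of which no mouse had more than 185.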

Other observations

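Some listed genes of the same pathway had cluster profiles of their own. They were chosen after their values were seen and are given with no test, as mean ± SD over mice. Art2b, an ADP-ribosyltransferase of the T cell surface that can open P2X7, was found in 48.5 ± 7.26% of Sostdc1 Tfh, 45.1 ± 5.68% of Tfr and 33.7 ± 4.56% of activated Tfh cells, and in 21.6 ± 4.18% of central memory and 15.3 ± 7.29% of effector cells, the clusters that were also low in P2rx7. Sostdc1 Tfh and Tfr cells each exceeded activated Tfh cells in Art2b in 10 of 10 mice. P2rx4 was found in 13.2 ± 2.14% of Tfr cells, above activated Tfh cells (8.72 ± 1.21%) in 10 of 10 mice. Cd38, which was found in 23.2 ± 4.82% of effector cells and 8.18 ± 2.67% of activated Tfh cells, was higher in effector cells in 10 of 10 mice, as Entpd1 was.

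Of 6 listed phosphodiesterases, which break down cyclic AMP, 2 are given with their SD, and the others did not all share their profile. Pde3b was found in 18.3 ± 4.56% of central memory, 6.50 ± 1.95% of activated Tfh and 1.08 ± 0.557% of Tfr cells, lower in Tfr than in activated Tfh cells in 10 of 10 mice. Pde7a was found in 26.3 ± 7.79% of central memory and 7.92 ± 2.51% of Tfr cells, with 12.3 ± 4.603% of activated Tfh cells between them. Pde4b, the most often detected of the 6, was found in 28.8% of Tfr, 27.4% of activated Tfh and 24.6% of central memory cells. In central memory, activated Tfh and Tfr cells Pde4d was found in 8.74, 3.50 and 4.44%, Pde8a in 3.53, 1.42 and 1.34% and Pde4a in 0.218, 0.399 and 0.699%. Pde4d and Pde8a were thus highest in central memory cells, as Pde3b and Pde7a were, and Pde4a and Pde4b were not. Dpp4, a gene of the adenosine list, was found in 27.4 ± 5.11% of central memory and 26.2 ± 4.83% of interferon stimulated cells. In activated Tfh cells it was found in 11.3 ± 2.50%, and both other clusters were higher in 8 of 8 mice.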
